A study of Mus musculus with 15 samples.

Results

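Collagen genes were examined in mouse cells that were driven towards, or away from, a hepatocyte state. The collagens were all genes whose symbol is Col, a number, the letter a and a number, among probe sets (groups of array probes for one transcript) that carry 1 symbol. One probe set stood for each gene, the one with the highest mean over the 15 arrays. This gave 42 collagen genes of 18194 genes measured, drawn from 82 collagen probe sets. Of the 44 collagens in the RefSeq gene table, Col28a1 and Col6a6 were not analysed here.

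RNA from 5 groups of cells, 3 samples each, was hybridised to Affymetrix Mouse Genome arrays. MLC cells came from mouse primary hepatocytes kept in the medium used for mesenchymal stromal cells with human TGF-β1 at 10 ng/ml for 7 days, at 5 ng/ml until day 14 and at 1 ng/ml until day 28, and then without it. dHD28 cells were HD28 cells whose second medium was replaced by the stromal cell medium, a step the labels call hepatogenic de-differentiation. HD28 cells were mouse mesenchymal stromal cells (MSC) given 20 ng/ml HGF, 10 ng/ml bFGF and 0.61 g/L nicotinamide for 7 days, and then 20 ng/ml oncostatin M, 1 µmol/L dexamethasone and an insulin, transferrin and selenium premix, with weekly medium changes. Hepatocytes were mouse primary hepatocytes in DMEM/F12 with 10% serum, and MSC were grown in low glucose DMEM with 10% serum, the medium that dHD28 and MLC cells also received. No genetic modification is named for any group, the strain and age of the mice are not given in the sources used here, and since the labels leave the source of each replicate (culture, animal or pool) unsaid, the p-values measure the spread between these samples only.

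Collagens are secreted proteins whose chains wind into a triple helix and assemble into fibrils, networks or filaments. Fibrillar collagens give connective tissue its tensile strength, collagen IV forms the mesh of basement membranes, collagen VI forms beaded microfibrils, and smaller families sit on the surface of fibrils or in cell membranes. In liver, hepatic stellate cells and portal fibroblasts are the main known makers of fibrillar collagen, TGF-β is a known inducer of it, and fibrosis is its excess. Collagen XVIII is known to be made by hepatocytes, and its C-terminal fragment is endostatin.

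The promoters of the 4 collagens called as changed between HD28 cells and MSC, by the rule given below, are shown first. Each is the RefSeq window of 300 bases, most of it before and the rest after the gene's start (build GRCm38.p6), printed 5′ to 3′ on the gene's own strand. Col4a1 and Col4a2, which encode the chains of the commonest collagen IV, lie head to head on chromosome 8 with annotated starts 21 bases apart, at chr8:11312777-11313076 on the minus strand and chr8:11312555-11312854 on the plus strand. Capitals mark the 78 bases that both windows hold, as reverse complements of each other.
Col4a1: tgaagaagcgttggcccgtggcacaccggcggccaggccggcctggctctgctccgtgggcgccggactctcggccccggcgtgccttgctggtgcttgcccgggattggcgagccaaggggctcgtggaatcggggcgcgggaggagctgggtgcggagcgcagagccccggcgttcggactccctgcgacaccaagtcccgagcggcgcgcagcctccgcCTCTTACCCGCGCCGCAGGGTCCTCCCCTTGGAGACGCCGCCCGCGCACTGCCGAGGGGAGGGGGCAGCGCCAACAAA
Col4a2: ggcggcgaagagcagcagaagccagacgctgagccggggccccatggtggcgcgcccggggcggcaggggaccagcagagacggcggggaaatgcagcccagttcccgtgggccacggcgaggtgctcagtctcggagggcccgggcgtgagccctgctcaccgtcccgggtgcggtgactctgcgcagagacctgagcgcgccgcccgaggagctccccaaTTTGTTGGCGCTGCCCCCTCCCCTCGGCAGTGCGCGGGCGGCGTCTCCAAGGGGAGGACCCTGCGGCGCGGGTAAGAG
As annotated, the first bases of the transcripts overlap on opposite strands. Col11a1, which encodes a chain of the minor fibrillar collagen XI, lies at chr3:114030290-114030589 on the plus strand, and Col8a1, which encodes a chain of the network-forming collagen VIII, at chr16:57754688-57754987 on the minus strand. Both were chosen because they moved furthest and in opposite directions. Capitals mark matches to the CCAAT box, the GC box GGGCGG or the Smad box CAGAC on either strand.
Col11a1: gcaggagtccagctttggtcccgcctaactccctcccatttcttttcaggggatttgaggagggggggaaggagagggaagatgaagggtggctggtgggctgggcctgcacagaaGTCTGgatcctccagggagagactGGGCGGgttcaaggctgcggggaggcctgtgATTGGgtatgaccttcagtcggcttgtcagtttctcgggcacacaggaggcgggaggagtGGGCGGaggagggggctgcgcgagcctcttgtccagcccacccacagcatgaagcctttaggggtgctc
Col8a1: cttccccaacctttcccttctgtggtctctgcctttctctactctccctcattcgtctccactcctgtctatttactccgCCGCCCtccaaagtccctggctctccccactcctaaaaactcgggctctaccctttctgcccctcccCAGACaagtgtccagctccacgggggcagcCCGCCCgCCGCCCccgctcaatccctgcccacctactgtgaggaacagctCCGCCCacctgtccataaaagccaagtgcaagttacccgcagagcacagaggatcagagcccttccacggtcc

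Of the 42 collagens, 33 had a promoter window in the RefSeq table, set beside the windows of 27025 genes. The GC box GGGCGG, a site for Sp1-type factors, was in the windows of 21 of the 33 collagens (63.6%) and of 38.2% of all genes. Base composition differed in the same direction, with a median GC content of 60.0% over the collagens and 52.8% over all genes. Other motifs were at shares close to those of all genes: CCAAT in 13 of 33 (39.4%, against 41.1%), TATAAA in 5 (15.2%, against 15.7%) and the Smad box CAGAC, which TGF-β signalling uses, in 18 (54.5%, against 53.2%). A full palindromic glucocorticoid response element was in 0 collagen windows and in 0.537% of all, and a STAT site (TTCNNNGAA) was in 1, Col6a5 (3.03%, against 9.55%). All were searched on both strands, matches of a Smad box and a GC box can share an end base (none do in the windows printed), and a match is a description of the sequence only.

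Values are given on the log2 scale of the deposited array table, where a difference of 1 is a 2-fold change. They compare samples for one gene and do not rank genes. The medians of the 15 arrays lay between 4.84 and 4.95 and their lower quartiles between 3.43 and 3.7. Over all 5 groups, 12 of the 42 collagens stayed under 4.84 in every group mean. Arrays carry no read depth, so the number of arrays limits the precision.

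Certain arrays stood apart from their labels or their group. HD28 replicate 3 had a mean of 11.6 over 11 measured hepatocyte markers, against 4.18 and 4.43 in HD28 replicates 1 and 2, where these markers were as low as in MSC (4.37 to 4.60). Albumin, a defining hepatocyte product, was 13.8 in HD28 replicate 3 and 3.38 and 3.74 in the other HD28 arrays. The same array was also the highest of its group for 8 of 8 liver endothelial and 9 of 9 Kupffer cell markers. Hepatocyte replicate 1 was the lowest of its group for 8 of 8 stellate cell, 8 of 8 endothelial and 9 of 9 Kupffer cell markers. Thy1 and Nt5e, surface markers often used to define MSC, were at 3.91 to 5.91 and 5.91 to 6.11 in the MSC arrays, while Vim and Cd44 were at 13.3 to 13.6 and 10.2 to 10.5. The 24 spike-in control probe sets split the arrays into a class of 6 with high values (MSC replicate 1, HD28 and dHD28 replicates 2, Hepatocyte replicate 1 and MLC replicates 1 and 2) and a class of 9 with low values. Collagens that differed by this class were Col3a1, Col12a1 and Col8a2, each lower in the high class (3 of 42, 7.14%, against 2.18% of all genes). Because these are bulk samples, fewer cells of a type and less RNA per cell cannot be told apart.

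**Figure D1:**
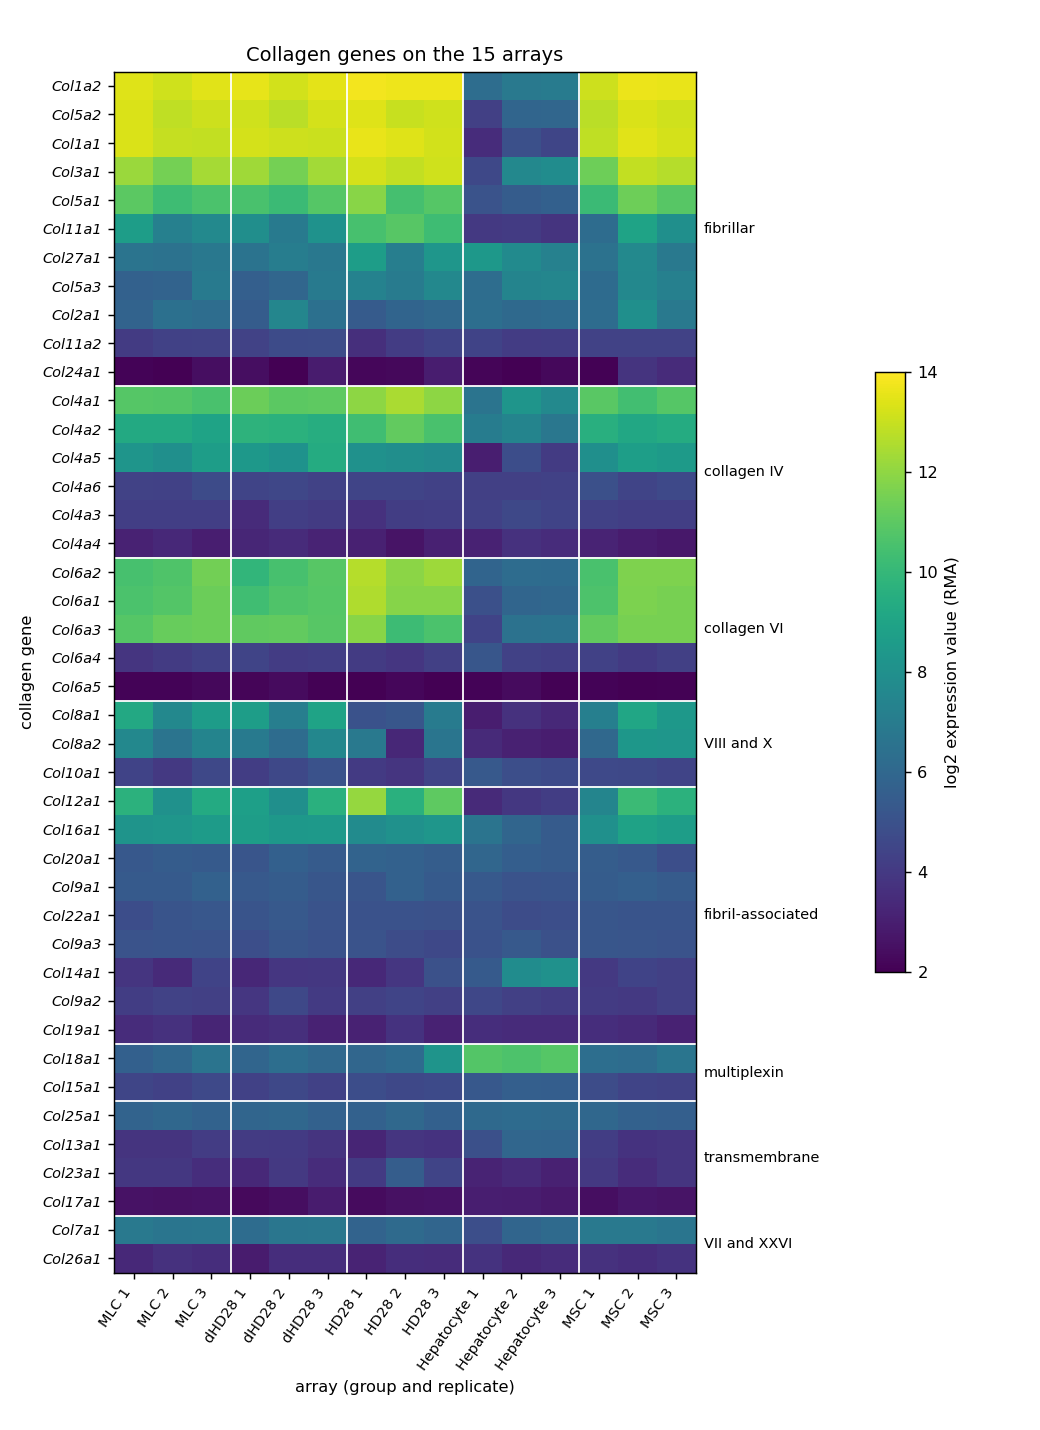
Log2 expression values of the 42 collagen genes (rows, grouped by collagen class) in the 15 arrays (columns, by group and replicate), as a colour scale in log2 units. Yellow is high and dark blue is low. The Hepatocyte columns are dark for Col1a1, Col1a2, Col5a2 and the first 3 collagen VI rows, which are yellow to green in the other 4 groups, and light green for Col18a1.

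Group means differed for 23 of the 42 collagens (F test of limma, Benjamini-Hochberg adjusted p under 0.05), against 46.8% of all genes. Hepatocytes were the lowest group for 18 of these 23, and HD28 cells were the highest group for 13. MSC were highest for 4, Hepatocytes for 4, and dHD28 and MLC cells for 1 each. These ranks order group means without a test between the groups, and their shares over all genes were not computed. Only Col4a1, Col4a2 and Col11a1 passed as higher in HD28 cells than in MSC. Among families, 7 of 11 fibrillar collagens, 3 of 6 collagen IV chains, 3 of 5 collagen VI chains, 2 of 3 of collagens VIII and X, 3 of 9 fibril-associated collagens, both multiplexins and 2 of 4 transmembrane collagens differed. In the other 19 collagens, the range of the 5 group means lay between 0.16 and 1.23, the largest being that of Col2a1, the cartilage fibril collagen.

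The comparison of HD28 cells with MSC asks which collagens move when stromal cells are given hepatogenic media. Both main collagen IV chains and Col11a1 rose in HD28 cells, and Col8a1 fell. The large fibrillar genes of collagens I, III and V did not pass the test. The verbs rose, fell and changed are kept for genes with at least a 2-fold difference whose adjusted p was under 0.05. By that rule 3 of 42 collagens rose (7.14%, against 3.24% of all genes) and 1 fell (2.38%, against 3.52%), with 6.77% of all genes called in either direction. The median log2 change was -0.03 over the collagens and -0.08 over all genes.

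Col4a1 had values of 11.94, 12.46 and 11.98 in HD28 arrays, against 10.91, 10.35 and 10.85 in MSC arrays. Every HD28 array lay above every MSC array. The change was 1.42 ± 0.33 (SE), 2.68-fold (limma, adjusted p = 0.013), and a second probe set of the gene was called in the same direction. The call ended when MSC replicate 2 was left out (1.25, adjusted p = 0.055), and likewise for HD28 replicate 2 (1.26, adjusted p = 0.061).

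Col4a2, its head-to-head neighbour, had 10.31, 11.12 and 10.55 in HD28 arrays and 9.55, 9.18 and 9.40 in MSC arrays. Here too the groups did not overlap. The change was 1.28 ± 0.22, 2.44-fold (limma, adjusted p = 0.0022). Of the other collagen IV chains, which build the specialised basement membranes of kidney and other organs, none passed: Col4a3, Col4a4 and Col4a6 stayed between 2.65 and 4.91 in all HD28 and MSC arrays, and Col4a5 averaged 7.94 ± 0.13 in HD28 and 8.40 ± 0.39 in MSC (SD, n = 3 each).

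Col11a1 had 10.52, 10.88 and 10.25 in HD28 arrays, against 6.25, 8.94 and 7.95 in MSC arrays. The MSC arrays were spread over more than 2 log2 units, and all lay below the HD28 arrays. Its rise of 2.84 ± 0.56, 7.14-fold (limma, adjusted p = 0.0058), was the largest of any collagen in this comparison. It was 2.10 (4.30-fold) without MSC replicate 1, the lowest MSC array, and 3.45 (10.9-fold) without MSC replicate 2, the highest. A fit to the 6 arrays of these 2 groups alone ended the call (adjusted p = 0.053).

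Col8a1, whose product is found in vessel walls and in the basement membrane of the cornea, went the other way, with 5.00, 5.21 and 7.00 in HD28 arrays and 7.20, 9.10 and 8.38 in MSC arrays. HD28 replicate 3, the array with hepatocyte markers, was the highest of its group and lay just under the lowest MSC array. The change was -2.48 ± 0.64, 5.60-fold (limma, adjusted p = 0.025), and leaving out HD28 replicate 3 gave -3.12 (adjusted p = 0.0086). The call was lost in a fit to these 6 arrays alone (adjusted p = 0.083), and without MSC replicate 2 (-2.05, adjusted p = 0.093), MSC replicate 3 (-2.41, adjusted p = 0.067), or either HD28 replicate 1 (-2.12, adjusted p = 0.097) or replicate 2 of that group (-2.22, adjusted p = 0.096). Its partner chain Col8a2 had 6.84, 3.34 and 6.68 in HD28 arrays, against 6.08, 8.37 and 8.29 in MSC arrays, so that the groups overlapped and the change of -1.96 did not pass (adjusted p = 0.16).

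Without HD28 replicate 3 the same counts were reached, 3 higher and 1 lower, and Col11a1 (2.99), Col4a1 (1.50) and Col4a2 (1.34) kept their calls. When the spike-in class entered the fit as a block and that array was left out, 6 collagens rose, which adds Col12a1 (1.98, adjusted p = 0.033), Col6a1 (1.02, adjusted p = 0.019) and Col6a2 (1.09, adjusted p = 0.03), and 2 fell, which adds Col8a2 (-2.28, adjusted p = 0.042). Over all 18194 genes 828 rose and 798 fell in that fit (main values 590 and 641).

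The genes of the fibril core showed small differences. Col1a1, the main chain of collagen I, had 13.61, 13.40 and 13.16 in HD28 arrays and 12.83, 13.45 and 13.22 in MSC arrays. Col1a2, the other chain of collagen I, had 13.79, 13.68 and 13.72 in HD28 arrays and 13.10, 13.65 and 13.58 in MSC arrays. The changes were 0.22 (adjusted p = 0.70) and 0.29 (adjusted p = 0.44), and both genes were near the top of the scale, where the highest value of the table is 14.15. Col3a1, the fibril collagen of soft tissues, had 13.24, 12.89 and 13.13 in HD28 arrays and 11.34, 12.88 and 12.65 in MSC arrays, with MSC replicate 1 well below the rest (change 0.80, adjusted p = 0.53). Col5a2, which helps set fibril diameter, had 13.40, 13.00 and 13.13 in HD28 arrays and 12.74, 13.34 and 13.15 in MSC arrays, and the groups overlapped.

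**Figure D2:**
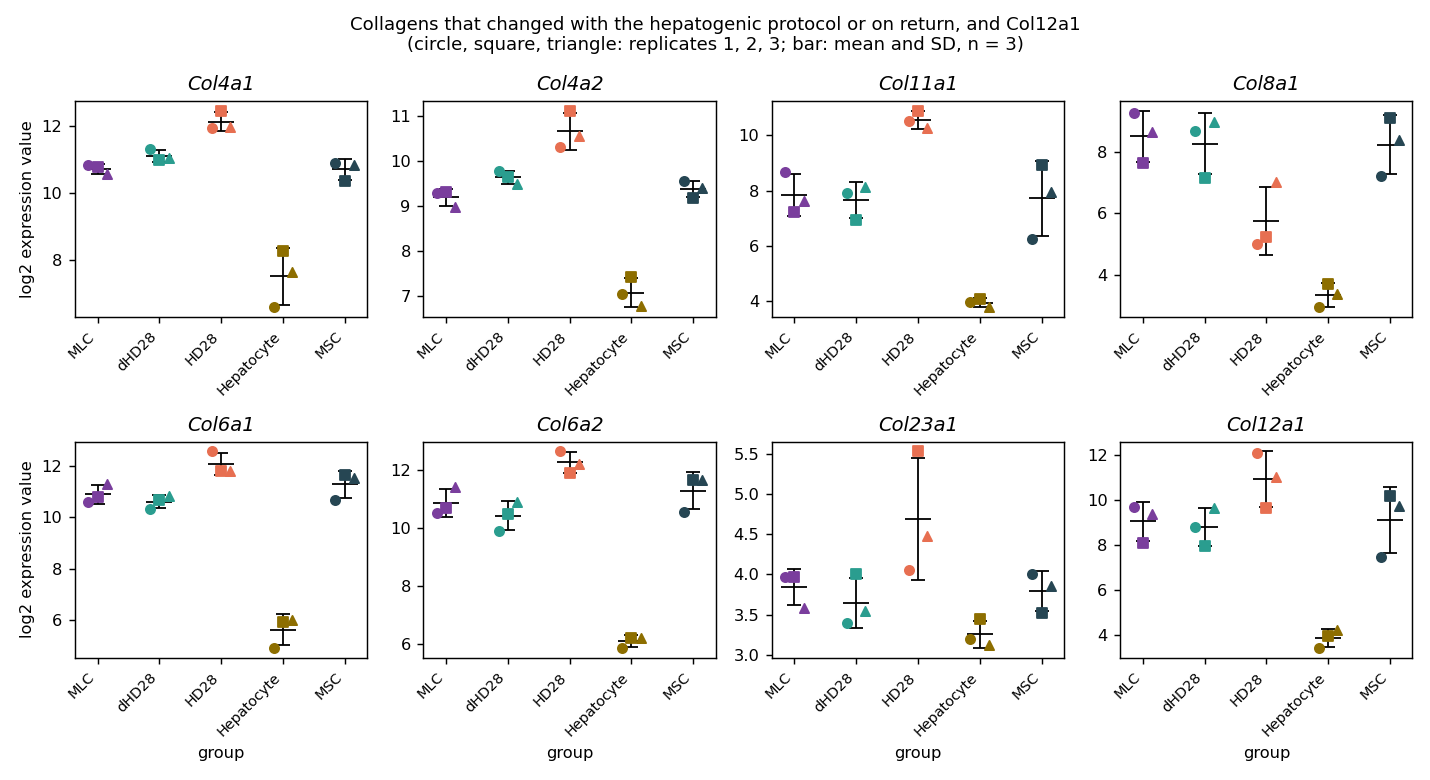
Log2 expression value (vertical axis) of the collagens that changed between HD28 cells and MSC or between dHD28 and HD28 cells, and of Col12a1, one panel per gene, with groups in the order MLC, dHD28, HD28, Hepatocyte and MSC. Points are arrays and bars are means with SD (n = 3). Col11a1, Col4a1, Col4a2, Col6a1 and Col6a2 have their highest mean in HD28 cells, and Col8a1 is lower there (5.00 to 7.00) than in the MSC arrays (7.20 to 9.10).

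The comparison of dHD28 with HD28 cells asks what happens when the hepatogenic medium is replaced by stromal cell medium. Col11a1, Col4a2, Col6a1, Col6a2 and Col23a1 fell and Col8a1 rose. That is 5 lower of 42 (11.9%, against 4.19% of all genes) and 1 higher (2.38%, against 4.63%), 6 in all against 8.82% of all genes, with a median change of -0.08 over the collagens and 0.05 over all genes. This comparison and the one before it use the same HD28 arrays, so a high or low HD28 value moves both in opposite directions.

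Col6a2, a chain of the beaded collagen VI, had 9.91, 10.49 and 10.91 in dHD28 arrays and 12.65, 11.92 and 12.23 in HD28 arrays. The gap between the groups was about 1 log2 unit. The change was -1.83 ± 0.35, 3.57-fold (limma, adjusted p = 0.0035), and the second probe set was called lower as well.

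Col6a1, the neighbouring gene on chromosome 10 and the partner chain, had 10.32, 10.69 and 10.83 in dHD28 arrays against 12.57, 11.82 and 11.81 in HD28 arrays. Again no dHD28 array reached the HD28 arrays. The change was -1.46 ± 0.34, 2.75-fold (limma, adjusted p = 0.012). Leaving out HD28 replicate 1 (-1.21, adjusted p = 0.054) or dHD28 replicate 1 (-1.31, adjusted p = 0.059) ended the call. Col6a3, the largest chain of collagen VI, differed from these partners, with 11.08, 11.14 and 10.87 in dHD28 arrays and 11.85, 10.25 and 10.60 in HD28 arrays, where the groups overlapped.

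Col11a1 had 7.92, 6.92 and 8.13 in dHD28 arrays, all more than 2 log2 units below the HD28 values given above. It fell by 2.89 ± 0.56, 7.42-fold (limma, adjusted p = 0.0041). Col8a1 had 8.66, 7.15 and 8.98 in dHD28 arrays, each above the highest HD28 array of 7.00. It rose by 2.52 ± 0.64, 5.75-fold (limma, adjusted p = 0.019), and 2 of 2 other probe sets were called higher too. Without HD28 replicate 3, the array with hepatocyte markers, it rose by 3.16 (8.91-fold, adjusted p = 0.0065). This call too was lost in a fit to these 6 arrays alone (adjusted p = 0.055), or when one array was left out: HD28 replicate 1 (2.16, adjusted p = 0.074), HD28 replicate 2 (2.26, adjusted p = 0.077), dHD28 replicate 1 (2.33, adjusted p = 0.077) or dHD28 replicate 3 (2.17, adjusted p = 0.061).

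Of the collagen IV pair, Col4a2 had 9.76, 9.65 and 9.49 in dHD28 arrays, below the lowest HD28 array of 10.31. It fell by 1.02 ± 0.22, 2.03-fold (limma, adjusted p = 0.007), just past the fold limit, and was below that limit without HD28 replicate 2 (-0.80) or dHD28 replicate 3 (-0.95). Col4a1 had 11.31, 10.99 and 11.04 in dHD28 arrays, below the lowest HD28 array of 11.94, and its change of -1.02 did not pass (adjusted p = 0.056).

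Col23a1, a transmembrane collagen, had 3.40, 4.0 and 3.54 in dHD28 arrays against 4.06, 5.53 and 4.48 in HD28 arrays. Apart from HD28 replicate 2, these values lay under the median of their arrays. The change of -1.04 ± 0.30, 2.06-fold (limma, adjusted p = 0.037), was lost without HD28 replicate 2 (-0.62, adjusted p = 0.12), HD28 replicate 3 (-1.15, adjusted p = 0.055), dHD28 replicate 1 (-0.92, adjusted p = 0.13) or dHD28 replicate 3 (-0.99, adjusted p = 0.083), and 0 of its 2 other probe sets were called. Without HD28 replicate 3, 4 collagens fell and 1 rose, and Col23a1 was the one no longer called.

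Col12a1, a fibril-associated collagen of tendon and stressed tissue, had the widest uncalled difference, with 8.78, 7.97 and 9.63 in dHD28 arrays and 12.10, 9.63 and 11.01 in HD28 arrays (change -2.12, adjusted p = 0.078). In both groups replicate 2, of the high spike-in class, was the lowest array. With that class as a block, 9 collagens fell, which adds Col12a1 (adjusted p = 0.01), Col4a1 (-1.02, adjusted p = 0.048), Col5a3 (-1.13, adjusted p = 0.021) and Col27a1 (-1.22, adjusted p = 0.045). Over all 18194 genes 958 fell in that fit (main value 762). Same-numbered dHD28 and HD28 samples deviated together, and with the replicate number as a block 6 collagens fell, which adds Col5a3 (adjusted p = 0.034), a chain of collagen V. With that block 818 of all genes fell.

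The comparisons among dHD28 cells, MLC cells and MSC ask how alike cells in stromal medium are when they come by different routes. Between dHD28 cells and MSC, between MLC cells and MSC, and between MLC and dHD28 cells, 0 of 42 collagens and 0% of all genes passed (limma, smallest adjusted p = 1). At an unadjusted p under 0.05 there were 1, 1 and 0 collagens, and 205, 92 and 64 of the 18194 genes (1.13%, 0.506% and 0.352%). These shares lie well below the threshold itself. The p-values rest on 1 spread pooled over all 5 groups, HD28 cells and Hepatocytes included. They do not measure the spread within the dHD28, MLC and MSC arrays alone. Fits to only the arrays of the 2 groups compared also called 0 of the 18194 genes in each of these comparisons. Some arrays also deviated from their group means in common across group labels. The correlation over all genes was 0.78 between MLC and dHD28 replicates 2 and 0.77 between MLC and MSC replicates 3. Those pairs share a spike-in class, and MLC and MSC replicates 2, at -0.68, do not. Other pairs departed from this pattern. MLC and MSC replicates 1 share the class and were at -0.21, and MLC and dHD28 replicates 1 do not and were at 0.21. Why the groups lie so close was not tested, and the labels are used as given. The largest differences among collagens were -0.86 for Col6a2 in dHD28 cells against MSC, -0.95 for Col24a1, a minor fibrillar collagen, in MLC cells against MSC, and 0.45 for Col6a2 in MLC against dHD28 cells. A p that misses the threshold does not show that the cells are alike.

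The arrays of these groups overlapped for the abundant fibril genes. Col1a1 had 13.31, 12.96 and 12.89 in MLC arrays, 13.24, 13.08 and 13.05 in dHD28 arrays and, as given above, 12.83 to 13.45 in MSC arrays. Col1a2 had 13.41, 13.13 and 13.45 in MLC arrays and 13.56, 13.17 and 13.51 in dHD28 arrays. All of these lay inside the range of the MSC arrays. Col3a1 had 12.20, 11.48 and 12.40 in MLC arrays and 12.28, 11.50 and 12.36 in dHD28 arrays, again inside the MSC range of 11.34 to 12.88, and replicate 2 was the lowest in both groups. Col5a2 had 13.34, 12.83 and 13.11 in MLC arrays and 13.13, 12.75 and 13.22 in dHD28 arrays, inside the MSC range of 12.74 to 13.34.

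The comparison of MLC cells with Hepatocytes asks which collagens differ after hepatocytes are kept in stromal medium with TGF-β1. Here 17 of 42 collagens were higher in MLC cells (40.5%, against 18.4% of all genes) and 5 were lower (11.9%, against 12% of all genes), with 30.5% of all genes called in either direction. The median change was 0.12 over the collagens and -0.06 over all genes. Centring the arrays on 9 housekeeping genes shifted that last median to -0.74 and gave 16 higher and 9 lower collagens. Over all 18194 genes that centring gave 1873 higher and 5656 lower (main values 3353 and 2188). The comparison of Hepatocytes with MSC shares the Hepatocyte arrays, and in it 17 collagens were lower in Hepatocytes (40.5%, against 18.3% of all genes), among them Col1a1 (-8.84), Col5a2 (-7.71) and Col1a2 (-6.75), and 3 were higher (7.14%, against 11.8%), Col18a1 (4.34), Col14a1 (2.88) and Col13a1 (1.67), with 30.1% of all genes called in either direction.

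Both chains of collagen I were far higher in MLC cells. Col1a1 had 3.54, 4.91 and 4.52 in Hepatocyte arrays, against the 12.89 to 13.31 of the MLC arrays. The Hepatocyte mean of 4.32 ± 0.71 lay under the median of the arrays. MLC cells were higher by 8.73 ± 0.29, 425-fold (limma, adjusted p = 5.6e-10). Col1a2 had 6.27, 6.83 and 6.97 in Hepatocyte arrays, and MLC cells were higher by 6.64 ± 0.20, 99.9-fold (limma, adjusted p = 4.7e-10). The choice of probe set moved these sizes, to 7.43 for Col1a1 with the mean of all its probe sets and to 8.81 for Col1a2 with the probe set of largest variance.

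Col5a2 had 4.27, 5.89 and 5.94 in Hepatocyte arrays, and MLC cells were higher by 7.73 ± 0.36, 212-fold (limma, adjusted p = 8.4e-09). Its neighbour on chromosome 1, Col3a1, had 4.60, 7.58 and 7.82 in Hepatocyte arrays, and MLC cells were higher by 5.36 ± 0.68, 41.1-fold (limma, adjusted p = 2.2e-05). Both genes were far lower in Hepatocyte replicate 1, the array low in stellate, endothelial and Kupffer cell markers, than in the other Hepatocyte arrays. Without that array the Col3a1 difference was 4.33. Col5a1, the main chain of collagen V, had 10.97, 10.25 and 10.59 in MLC arrays and 5.09, 5.48 and 5.67 in Hepatocyte arrays (5.19 ± 0.36 higher), and Col11a1 had 8.68, 7.23 and 7.63 in MLC arrays and 3.97, 4.10 and 3.80 in Hepatocyte arrays (3.89 ± 0.56 higher, adjusted p = 6.7e-05).

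For 3 of the 5 collagen VI chains, all MLC arrays lay far above all Hepatocyte arrays. Col6a1 had 10.60, 10.80 and 11.30 in MLC arrays and 4.92, 5.93 and 6.01 in Hepatocyte arrays (5.28 ± 0.34 higher). Col6a2 had 10.52, 10.69 and 11.43 in MLC arrays and 5.88, 6.22 and 6.21 in Hepatocyte arrays (4.78 ± 0.35 higher). The third, Col6a3, had 10.82, 11.21 and 11.29 in MLC arrays and 4.43, 6.54 and 6.56 in Hepatocyte arrays (5.26 ± 0.50 higher, and 4.56 without Hepatocyte replicate 1). The limma adjusted p of these 3 differences were 8.6e-08, 1.9e-07 and 1.9e-06. Col6a4 and Col6a5, which are separate genes on chromosome 9, stayed between 1.95 and 5.22 in all arrays and did not pass.

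Basement membrane genes were less far apart than Col6a1, Col6a2 and Col6a3. Col4a1 had 10.85, 10.77 and 10.56 in MLC arrays and 6.61, 8.28 and 7.66 in Hepatocyte arrays (3.21 ± 0.33 higher, 9.25-fold, limma adjusted p = 3.3e-06). Col4a2 had 9.29, 9.31 and 8.97 in MLC arrays and 7.04, 7.41 and 6.77 in Hepatocyte arrays (2.12 ± 0.22 higher, 4.33-fold, limma adjusted p = 3.6e-06). Of the pair on the X chromosome, whose starts lie 1343 bases apart in opposite directions, Col4a5 had 8.25, 7.96 and 8.67 in MLC arrays against 3.01, 4.84 and 4.06 in Hepatocyte arrays (4.32 ± 0.41 higher, limma adjusted p = 2e-06). Col4a6 stayed between 4.27 and 4.91 in all 15 arrays.

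Among the remaining genes that were higher in MLC cells, Col12a1 had 9.69, 8.08 and 9.35 in MLC arrays and 3.43, 3.94 and 4.20 in Hepatocyte arrays (5.18 ± 0.74 higher), and 1 of its 3 other probe sets was called. Col8a1 had 9.25, 7.62 and 8.65 in MLC arrays and 2.96, 3.71 and 3.37 in Hepatocyte arrays (5.16 ± 0.64 higher); with the mean of all probe sets of a gene these differences were 2.05 for Col12a1 and 3.39 for Col8a1. Col8a2 had 7.62, 6.63 and 7.41 in MLC arrays and 3.43, 3.12 and 2.98 in Hepatocyte arrays (4.04 ± 0.81 higher). The Hepatocyte means of Col8a1 and Col8a2 lay under the lower quartile of the arrays. Of the 17 genes, 6 (Col1a1, Col4a5, Col8a1, Col8a2, Col11a1 and Col12a1) had a Hepatocyte mean under every array's median, so their folds rest on the low end of the scale. Col16a1, a fibril-associated collagen, had 8.20, 8.31 and 8.57 in MLC arrays and 6.64, 5.93 and 5.45 in Hepatocyte arrays (2.35 ± 0.28 higher). Col7a1, which forms the anchoring fibrils of skin, had 6.86, 6.65 and 6.72 in MLC arrays and 4.88, 5.90 and 6.17 in Hepatocyte arrays. Its change of 1.09 ± 0.27 (limma, adjusted p = 0.004) fell under the fold limit without Hepatocyte replicate 1 (0.71) and was 0.42 with arrays centred on housekeeping genes (adjusted p = 0.14).

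Lower in MLC cells were 5 collagens, compared with Hepatocytes. Col18a1, the endostatin precursor, had 5.69, 6.01 and 6.63 in MLC arrays, against 10.77, 10.65 and 10.86 in Hepatocyte arrays. The Hepatocyte arrays lay close together and far above the rest. The change was -4.65 ± 0.44, 25.1-fold (limma, adjusted p = 1.9e-06). In the HD28 arrays Col18a1 was 5.98, 6.20 and 8.19, so the array with hepatocyte markers was the highest of its group, and in the MSC arrays it was 6.34, 6.25 and 6.67. The related multiplexin Col15a1, a basement membrane zone collagen, had 4.50, 4.32 and 4.63 in MLC arrays and 5.28, 5.62 and 5.61 in Hepatocyte arrays (-1.02 ± 0.16, limma adjusted p = 0.00015), and was under the fold limit without MLC replicate 2 (-0.94), Hepatocyte replicate 2 (-0.96) or Hepatocyte replicate 3 (-0.97).

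Col14a1, a fibril-associated collagen, had 3.85, 3.43 and 4.40 in MLC arrays, against 5.39, 7.85 and 8.07 in Hepatocyte arrays. Hepatocyte replicate 1 lay between the MLC arrays and the other Hepatocyte arrays. The change was -3.21 ± 0.59, 9.26-fold (limma, adjusted p = 5e-04), and -4.07 without that array, and 1 of 2 other probe sets was called. Col13a1, a transmembrane collagen of cell adhesion sites, had 3.79, 3.82 and 4.13 in MLC arrays and 4.92, 5.96 and 5.94 in Hepatocyte arrays (-1.69 ± 0.26, limma adjusted p = 0.00012). Again Hepatocyte replicate 1 was the lowest of its group. Col27a1, a fibrillar collagen of growth cartilage, had 6.63, 6.52 and 6.79 in MLC arrays and 8.39, 7.74 and 7.27 in Hepatocyte arrays, with Hepatocyte replicate 1 highest (-1.15 ± 0.39, limma adjusted p = 0.027). That call was lost without Hepatocyte replicate 1 (-0.86, adjusted p = 0.12), Hepatocyte replicate 2 (-1.18, adjusted p = 0.053), MLC replicate 1 (-1.14, adjusted p = 0.066) or MLC replicate 2 (-1.09, adjusted p = 0.075).

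Markers of other liver cells moved with some of these values. The mean over 8 stellate cell markers was 5.26, 6.83 and 6.79 in Hepatocyte arrays 1, 2 and 3, that over 8 endothelial markers 5.93, 7.04 and 7.17, and that over 9 Kupffer cell markers 6.60, 7.98 and 8.35. Lrat, which stellate cells use to store vitamin A, was 3.39, 7.97 and 7.04 in those arrays and 2.27 to 2.48 in MSC arrays. The mean over 10 mesenchymal markers was 4.61, 6.31 and 5.63 in Hepatocyte arrays 1, 2 and 3, with Vim at 4.81, 10.60 and 7.23. Of these 10, 8 were lowest in replicate 1 and 2 were highest there, Thy1 (4.92, 4.76 and 4.23) and Twist1 (3.66, 3.13 and 2.75). Hepatocyte replicate 1 lay at least 1 log2 unit below both other Hepatocyte arrays for 10 collagens (Col3a1, Col14a1, Col6a3, Col5a2, Col5a3, Col4a5, Col4a1, Col7a1, Col13a1 and Col6a1), and Col18a1 was level in the 3 arrays. The share of all genes with a gap of at least 1 log2 unit was not computed. Over all 42 collagens, Hepatocyte replicate 1 was the lowest of its group for 21 (50%, against 39.6% of all genes). It was the highest of its group for 14 (33.3%, against 37.6%). Hepatocyte replicate 1 was also the only Hepatocyte array of the high spike-in class, and the part of these markers or of the class in the result was not tested.

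**Figure D3:**
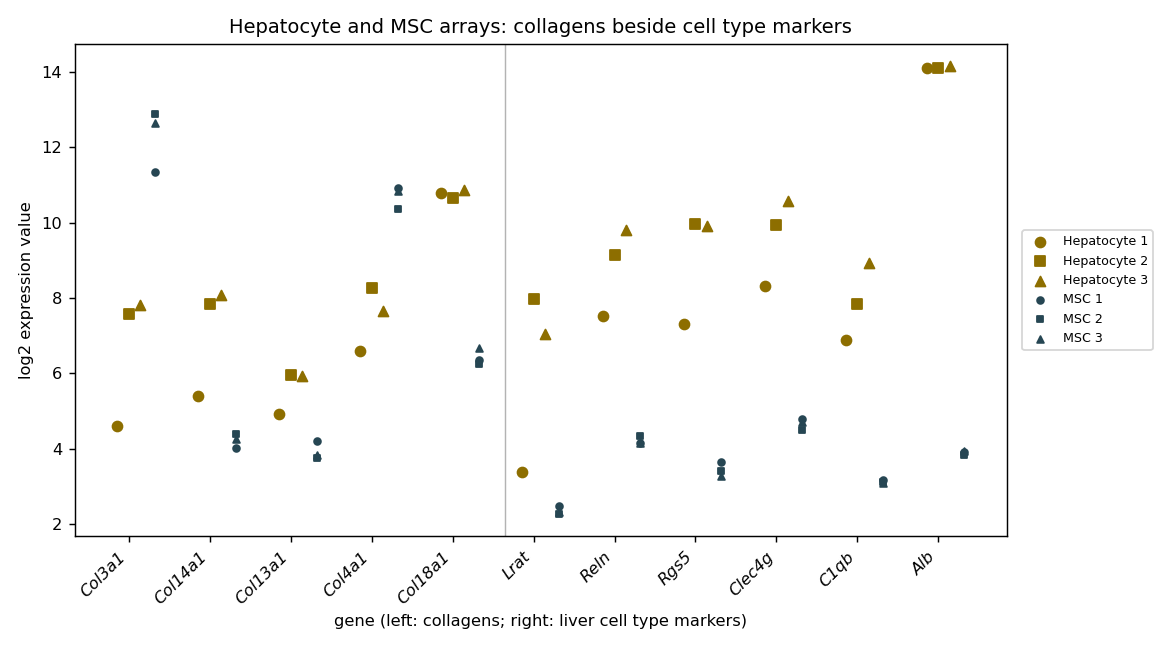
Log2 expression values (vertical axis) of 5 collagens (left of the line) and 6 liver cell type markers (right of the line) in the 3 Hepatocyte and 3 MSC arrays, one symbol per array. Hepatocyte replicate 1 lies below the others for Col3a1 (4.60), Col14a1 (5.39), Col13a1 (4.92) and Lrat (3.39), and level with them for Col18a1 (10.77) and Alb.

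The difference of MLC cells from Hepatocytes was set against that of dHD28 from HD28 cells as 1 contrast, MLC minus Hepatocyte less dHD28 minus HD28. The 2 arms are not the same step, since the Hepatocytes had not been in stromal medium before and only MLC cells received TGF-β1. MLC and dHD28 cells differed little, so the contrast is close to the starting difference of HD28 cells from Hepatocytes, which was 9.07 for Col1a1, 7.04 for Col1a2 and -3.97 for Col18a1. It passed for 20 of 42 collagens, 16 with a positive difference (38.1%, against 13.8% of all genes) and 4 with a negative one (9.52%, against 9.96%), where 23.7% of all genes differed. The differences were 9.0 ± 0.41 for Col1a1 and 6.96 ± 0.29 for Col1a2 (limma, adjusted p = 3.9e-08 and 3.1e-08). Neither gene passed between dHD28 and HD28 cells (-0.27, adjusted p = 0.64, and -0.32, adjusted p = 0.38). Col6a1 and Col6a2 were lower in dHD28 than in HD28 cells and higher in MLC cells than in Hepatocytes, with differences of 6.74 ± 0.48 and 6.61 ± 0.49 (limma, adjusted p = 1.2e-06 and 1.4e-06). Col11a1 did the same, with a difference of 6.78 ± 0.79 (limma, adjusted p = 5.1e-05). Col8a1 was higher both in dHD28 than in HD28 cells (2.52) and in MLC cells than in Hepatocytes (5.16), and the difference of 2.64 ± 0.91 (limma, adjusted p = 0.043) was lost in 11 of 29 alternatives.

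**Figure D4:**
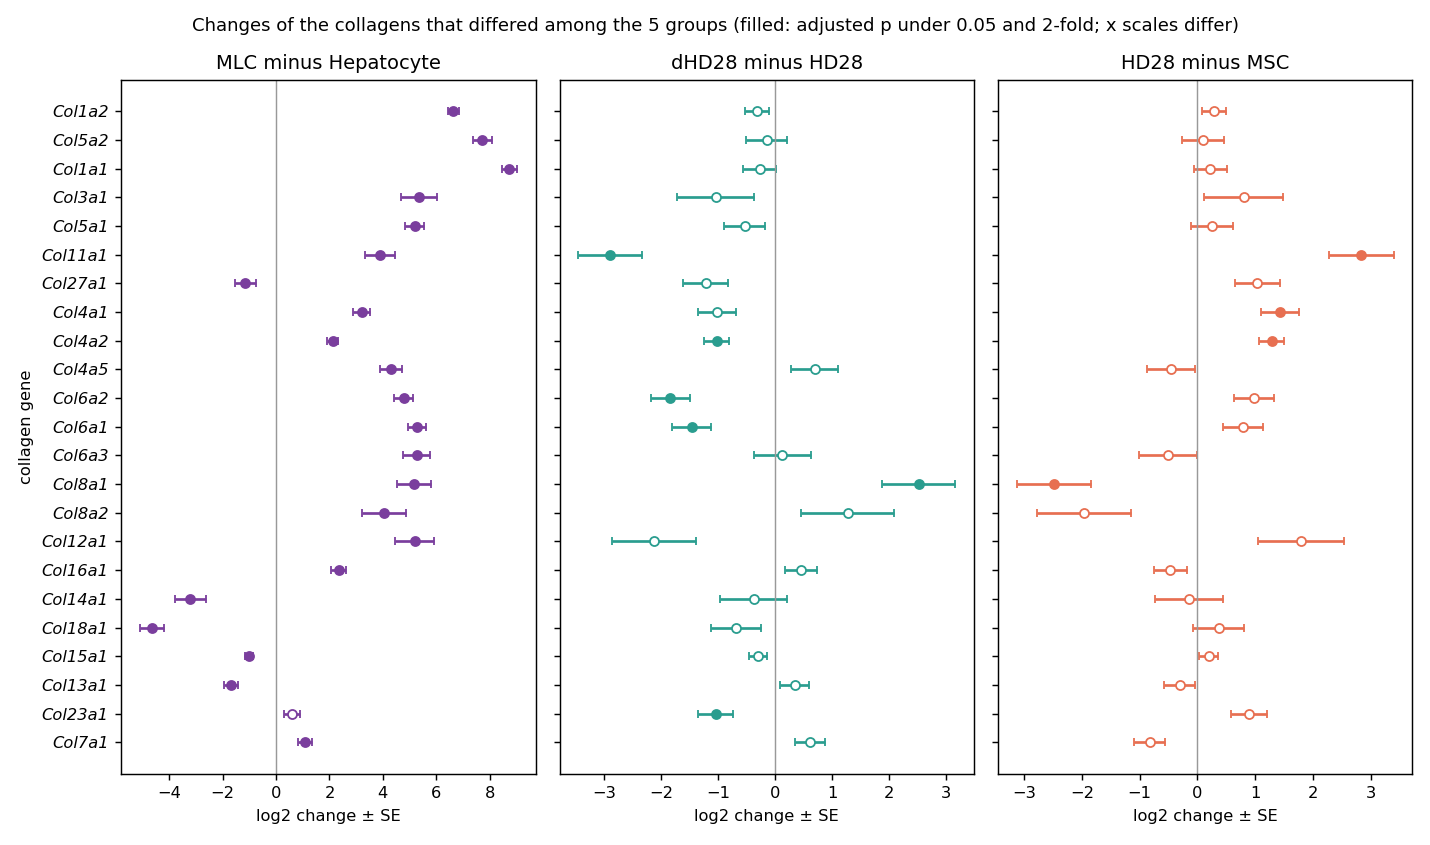
Log2 change (horizontal axis) of the 23 collagens whose group means differed, for MLC minus Hepatocyte, dHD28 minus HD28 and HD28 minus MSC. Points are changes, filled where the gene was called, and bars are SE from the model; the horizontal scales differ. Col1a1 is at 8.73 for MLC minus Hepatocyte and at -0.27 for dHD28 minus HD28, and Col18a1 is at -4.65 and -0.68.

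Genes that act on collagen were read beside the collagens from lists of known roles. Of 26 measured genes for folding, processing and cross-linking, 2 rose (7.69%, against 3.24% of all genes) and 4 fell (15.4%, against 3.52%) in HD28 cells against MSC. P3h3, a prolyl 3-hydroxylase, had the larger rise (1.10, adjusted p = 0.0055). The largest falls were P3h2 (-2.33, adjusted p = 0.00045), a prolyl 3-hydroxylase known to act on collagen IV, and the lysyl oxidase family members Loxl1 (-1.56, adjusted p = 0.018) and Loxl4 (-1.09, adjusted p = 0.038). In dHD28 cells against HD28 cells, P3h2 (2.32), Loxl1 (1.77) and Loxl4 (1.42) were higher and P3h3 (-1.13) was lower. In MLC cells against Hepatocytes 16 of the 26 were higher (61.5%, against 18.4% of all genes) and 1 was lower (3.85%, against 12%), the largest being the cross-linking enzyme Lox (8.37 ± 0.28, adjusted p = 5.6e-10), the procollagen C-proteinase enhancer Pcolce (6.54), Loxl1 (5.77) and the collagen chaperone Serpinh1 (5.25). The same 16 genes were lower in Hepatocytes than in MSC (61.5%, against 18.3% of all genes), and 1 was higher (3.85%, against 11.8%).

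Of 9 measured collagen receptors, the integrin chain Itga10 rose in HD28 cells against MSC (3.50 ± 0.67, adjusted p = 0.0048) and was lower in dHD28 than in HD28 cells (-4.31 ± 0.67, adjusted p = 0.001), and no other receptor passed in either comparison. In MLC cells against Hepatocytes, the uptake receptor Mrc2 (4.58) and the collagen-binding kinases Ddr1 (4.04) and Ddr2 (2.78) were higher and the integrin chain Itga1 was lower (-2.05). Of 8 measured TGF-β responsive matrix and contractile genes, Tagln fell in HD28 cells against MSC (-3.29 ± 0.46, adjusted p = 0.00055), and Tagln (3.67) and the pathway inhibitor Smad7 (1.24) were higher in dHD28 than in HD28 cells. Of the same 8, 5 were higher in MLC cells than in Hepatocytes (62.5%, against 18.4% of all genes), led by Acta2 (6.24 ± 0.59, adjusted p = 1.8e-06). The same 5 genes were lower in Hepatocytes than in MSC, which received no TGF-β1 (62.5%, against 18.3% of all genes), and 0 were higher. Between MLC cells and MSC, 0 of the 8 passed, as did 0 of all genes. The part of TGF-β1 in these differences was not tested.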

How the data were processed

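The deposited table holds log2 expression values of 45101 probe sets, made by the authors with RMA (robust multi-array average, version not given), per the submitters' processing notes; the values run between 1.32 and 14.15, and so the log base was read as 2. Per the labels, cRNA was made from 5 µg of total RNA. Of the probe sets, 64 are controls, 34958 carried 1 symbol in the platform annotation, 932 several and 9147 none; the gene IDs of 34754 matched RefSeq (GRCm38.p6) and 0 symbols were updated. The probe set with the highest mean stood for each gene.

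Group means of the 5 groups were fitted over 15 arrays and 18194 genes with limma 3.58.1 in R 4.3.3 (lmFit, eBayes, 10 residual degrees of freedom), with two-sided p adjusted by Benjamini-Hochberg over all genes. SE come from this model and SD from 3 arrays. The code was tested on simulated data. The members and all gene and marker lists were chosen with earlier results of these data known. Values per array are given for collagens that changed in HD28 minus MSC, dHD28 minus HD28 or MLC minus Hepatocyte and for the 8 with the highest means, and other genes are named as the 4 largest changes per list. The 4 promoters printed were chosen after the values of their genes were seen.

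Same-numbered samples deviated from their group means together in every pair between dHD28 and HD28 (0.32, 0.28 and 0.12). They also did so between MLC and dHD28 (0.21, 0.78 and 0.6). Samples of unlike number were not compared, so these values do not show that the numbers pair samples. The dHD28 and HD28 arrays of the same number also share the spike-in class, so number and class cannot be told apart there. MLC and dHD28 replicates 2 and 3 share the class too, and replicates 1 do not. In every other comparison at least 1 pair was under 0.1. Alternatives were the probe set rule, the normalization, a filter on dim genes, the blocks, array weights, the arrays fitted and leaving out each array.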

Additional observations from a re-analysis of the deposited data

Results flagged for a closer look

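The difference of MLC cells from Hepatocytes and that of dHD28 from HD28 cells were unequal for 20 collagens, by the limma contrast of MLC minus Hepatocyte less dHD28 minus HD28 (adjusted p under 0.05 over all genes and at least 2-fold). The arms are different treatments, and as MLC and dHD28 cells differed little, these values are close to the starting difference of HD28 cells from Hepatocytes. Among fibrillar genes the difference was 9.0 log2 units for Col1a1, 7.87 for Col5a2, 6.96 for Col1a2, 6.78 for Col11a1, 6.41 for Col3a1 and 5.72 for Col5a1. In collagen VI it was 6.74 for Col6a1, 6.61 for Col6a2 and 5.14 for Col6a3, and in collagen IV it was 4.23 for Col4a1, 3.63 for Col4a5 and 3.14 for Col4a2. Col12a1 differed by 7.30, Col8a1 by 2.64, Col16a1 by 1.90 and Col23a1 by 1.63. Negative differences were -3.97 for Col18a1, -2.84 for Col14a1, -2.03 for Col13a1 and -1.11 for Col10a1, a collagen of growth cartilage. Col8a1 lost its call in 11 of 29 alternatives, Col10a1 in 7 of 28, Col14a1 in 3 of 28 and Col23a1 in 1 of 28. With the mean of all probe sets of a gene, the difference was 2.94 for Col12a1, 1.16 for Col8a1 (adjusted p = 0.22) and 0.90 for Col23a1 (adjusted p = 0.079).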

How the results depend on the processing

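Over 72 calls of a collagen in a comparison and 2078 refits under an alternative, 2014 kept their direction and call, 64 lost the call and 0 changed direction. Many of these refits could hardly lose a call. Leaving out an array outside a comparison keeps its log2 change and alters only the p, and dropping the fold limit cannot lose a call. Of the 72 calls, 52 are in pairwise comparisons and the rest in the contrast of MLC minus Hepatocyte less dHD28 minus HD28. The comparisons of dHD28 cells with MSC, MLC cells with MSC and MLC with dHD28 cells gave 0 collagens under every alternative run. In HD28 cells against MSC, the count of collagens that fell was 0 with only the arrays compared, 4 with array weights and 2 with the replicate number as a block, and when the spike-in class was a block and HD28 replicate 3 left out 6 rose and 2 fell. Over all genes the first 3 of these fits gave 512, 667 and 664 that fell, and the last gave 828 that rose and 798 that fell. In dHD28 against HD28 cells, 3 collagens fell with arrays centred on their median and 9 when the spike-in class was a block, and 0 rose with only the arrays compared. Over all genes these counts were 734, 958 and 793. With only genes above the median of all genes, which leaves fewer genes tested, 2 were lower in MLC cells than in Hepatocytes, 1 was higher in Hepatocytes than in MSC, and 1 had a negative difference in the contrast of MLC minus Hepatocyte less dHD28 minus HD28. Over all genes that filter left 1139, 1147 and 903 for the same 3 counts. Centring on housekeeping genes gave 9, 8 and 8 collagens for them, and 5656, 4702 and 4234 of all 18194 genes (main values 2188, 2149 and 1812). By the F test 37 collagens differed under this centring, and the count over all genes was not computed there. The centring moved the median change of all genes to -0.74 (main value -0.06) for MLC minus Hepatocyte and to 0.66 (main value 0.04) for Hepatocyte minus MSC. The cause of the other shifts was not tested.

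Leaving out 1 array at a time gave 2 to 4 collagens that rose and 0 to 2 that fell in HD28 cells against MSC, 0 to 1 that rose and 3 to 7 that fell in dHD28 against HD28 cells, 16 to 17 higher and 3 to 6 lower in MLC cells than in Hepatocytes, 3 to 4 higher and 16 to 18 lower in Hepatocytes than in MSC, and 15 to 17 positive and 2 to 4 negative differences in the contrast of MLC minus Hepatocyte less dHD28 minus HD28. The count that fell in HD28 cells was 0 without MSC replicate 2 or 3 or HD28 replicate 1 or 2, and the count that rose in dHD28 cells was 0 without HD28 replicate 1 or 2 or dHD28 replicate 1 or 3; 3 fell in dHD28 cells without dHD28 replicate 1 or 3. In MLC cells against Hepatocytes 3 were lower without Hepatocyte replicate 2 or MLC replicate 2. The replicate block left 6 lower in dHD28 than in HD28 cells (main value 5), 24 by the F test (main value 23), and every other count but the one above as it was.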
